A study of Mus musculus with 20 samples.

Results

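The circadian clock genes described here are Per1, Per2, Per3, Cry1, Cry2, Clock, Npas2, Nr1d1, Nr1d2 and Dbp. Their probes were found through the RefSeq accession that the array files give for each probe and the symbol that RefSeq gives for that accession. The 10 genes were represented by 11 probes, 2 for Dbp and 1 for each other gene, out of 20972 genes and 55681 probes on the array. All 10 were among the 15102 genes tested, and all 11 probes were well above background on all 20 arrays.

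The clock of mammalian cells is a feedback loop of transcription. CLOCK, or its relative NPAS2, pairs with the product of Arntl (BMAL1) and switches on genes through a short DNA element, the E-box. Among these targets are the Per and Cry genes, whose proteins return to the nucleus and block the activating pair, and Nr1d1 and Nr1d2 (REV-ERB alpha and beta), which repress Arntl, Npas2, Clock and Cry1. Dbp, another E-box target, encodes a transcription factor that acts through D-box elements and is one of the most strongly rhythmic transcripts known in many tissues. In the striatum the loop runs under the lead of the suprachiasmatic nucleus, and it is also sensitive to dopamine and to psychostimulants, so the hour of tissue collection and the treatment can both bear on these transcripts.

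The 20 arrays were of 20 male C57BL/6J mice in 4 groups of 5. All mice carried a tetracycline-controlled regulator under the astrocyte promoter GFAP and all received doxycycline at 100 mg/kg a day for 7 days, so the controls shared both. Tat+ mice also carried the transgene for Tat, the transactivator protein of HIV-1, which doxycycline switches on in GFAP-expressing cells, and Tat- mice lacked it. Methamphetamine (Meth, 2 mg/kg) or saline (Sal) was injected on the same 7 days, which gave 2 saline groups, Tat-/Sal and Tat+/Sal, and 2 treated ones, Tat-/Meth and Tat+/Meth. The labels give the left hemisphere of a perfused brain, mice of 6 to 7 weeks and collection 24 h after the last injection. The methods of the study give caudate putamen, mice of 3 to 5 months, and collection 1 h after a Meth challenge at 1 mg/kg that followed 7 days of abstinence and that all mice received. Mice lived on a reversed light cycle with the dark phase starting at 7 AM, and the clock hour at which each brain was taken is not given in the sources used here.

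The striatal markers Drd1, Drd2, Adora2a, Ppp1r1b, Penk, Tac1, Rgs9 and Pde10a were well above background on all 20 arrays, with means of 11.24 to 18.20 log2 units. The cortical marker Neurod6 reached that mark on 12 arrays, and Tbr1 did on all 20 at a mean of 8.43. Of 6 markers of the suprachiasmatic nucleus, Six6 did so on 1 array, Nms on 3 and Prok2 on 6, whereas Vip did on 16, Lhx1 on 17 and Avp on all 20. The arrays lay on 3 slides, and the 5 Tat-/Meth arrays had slide 1 to themselves. Tat-/Sal and Tat+/Meth replicates 1 to 3 lay on slide 2, and Tat+/Meth replicates 4 and 5 and Tat+/Sal lay on slide 3. The bright corner control spots of slide 1 read 14.67 to 15.06 log2 units and those of the other slides 16.79 to 17.44. A difference between Tat-/Meth and any other group therefore cannot be told apart from a difference between slide 1 and the other slides. In tissue homogenates fewer cells of a type and less RNA per cell cannot be told apart.

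Levels are given as log2 of the processed signal with the 75th percentile of every array set to a common value, in the order of replicates 1 to 5. Levels of different probes are not comparable, so every comparison below is of one probe between arrays.

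Cry1, a repressor of the loop, differed most between groups. In Tat-/Sal the Cry1 level was 9.41, 9.43, 9.18, 9.34 and 9.37, and in Tat-/Meth it was 8.43, 8.71, 8.18, 8.47 and 8.10. No Tat-/Meth array reached the lowest Tat-/Sal array. Between these groups 36.2% of all genes did not overlap in either direction, and Tat-/Meth alone filled slide 1. In Tat+/Sal the values were 9.02, 9.25, 8.96, 9.28 and 9.03, and in Tat+/Meth 9.06, 9.35, 8.99, 9.11 and 9.08. These 2 Tat+ groups covered nearly the same range, between the 2 Tat- groups but overlapping Tat-/Sal. The Cry1 promoter is shown because it holds both kinds of E-box within a short stretch. It is given as RefSeq has it in GRCm38.p6, as the 250 bases before the start of transcription at chr10:85185055-85185304, minus strand, 5′ to 3′, with motif matches in capitals.
Cry1: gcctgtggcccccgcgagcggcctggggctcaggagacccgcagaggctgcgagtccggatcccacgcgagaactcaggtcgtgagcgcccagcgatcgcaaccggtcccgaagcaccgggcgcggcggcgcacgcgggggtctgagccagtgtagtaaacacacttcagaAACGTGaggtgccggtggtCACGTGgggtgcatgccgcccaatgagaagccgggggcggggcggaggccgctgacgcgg
The first capitals are an E'-box (CACGTT read on the other strand) that begins 79 bases before the start, and the second an E-box (CACGTG) that begins 60 bases before it.

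Cry2, the close relative of Cry1, showed no such difference. It read 15.47, 15.31, 15.45, 15.29 and 15.36 in Tat-/Sal, 15.44, 15.29, 15.22, 15.34 and 15.13 in Tat-/Meth, 15.30, 15.27, 15.44, 15.21 and 15.20 in Tat+/Sal and 15.32, 15.40, 15.33, 15.19 and 15.39 in Tat+/Meth. All 20 arrays lay within 0.34 log2 units, and the 4 group means lay between 15.28 and 15.38.

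The period genes varied more within groups than between them. Per1, which light, dopamine and stress hormones can induce acutely, stood at 14.74, 14.75, 14.85, 14.53 and 14.64 in Tat-/Sal and at 15.03, 15.04, 14.86, 14.62 and 14.55 in Tat-/Meth. In Tat+/Sal it was 14.93, 14.91, 15.19, 14.76 and 14.92, and in Tat+/Meth 14.70, 14.75, 14.60, 14.71 and 14.91. Thus 4 of 5 mice of Tat+/Sal exceeded the highest mouse of Tat-/Sal, and the remaining one lay within its range.

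Per2, an E-box target like Per1, read 10.48, 10.43, 10.59, 10.28 and 10.39 in Tat-/Sal and 10.79, 10.74, 10.27, 10.40 and 10.04 in Tat-/Meth. In Tat+/Sal it read 10.57, 10.56, 10.53, 10.75 and 10.57, and in Tat+/Meth 10.52, 10.58, 9.97, 10.42 and 10.34. The means lay between 10.37 and 10.60, and what differed more was the spread, with an SD of 0.32 in Tat-/Meth and 0.09 in Tat+/Sal. Per3, which is dispensable for the rhythm itself, read 7.41, 7.24, 7.75, 7.37 and 7.61 in Tat-/Sal, 7.25, 6.96, 7.42, 7.34 and 7.59 in Tat-/Meth, 7.51, 7.55, 7.87, 7.40 and 7.67 in Tat+/Sal and 7.69, 7.60, 7.82, 7.25 and 7.58 in Tat+/Meth. Every pair of groups overlapped.

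Clock, an activator of the loop, was the only one of the 10 genes whose 10 Tat+ arrays did not overlap its 10 Tat- arrays. The values were 10.77, 10.95, 10.75, 10.97 and 10.93 in Tat-/Sal and 11.18, 10.98, 11.23, 11.24 and 11.09 in Tat-/Meth. In Tat+/Sal they were 10.53, 10.74, 10.74, 10.65 and 10.56, and in Tat+/Meth 10.69, 10.66, 10.74, 10.65 and 10.66. The highest Tat+ array, at 10.74, lay just under the lowest Tat- array, at 10.75, so the gap between them was small. Such a separation in either direction was seen for 30 of 15102 genes, or 0.199%, and it was noticed after the values had been seen. It was also present after quantile normalization, normexp background correction and in the authors' own table of values, but not with median scaling, where none of the 10 Tat+ arrays lay below every Tat- array, nor without scaling, where 5 did. Within slide 2, the 3 Tat+/Meth arrays read 10.66 to 10.74 and the 5 Tat-/Sal arrays 10.75 to 10.97.

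Npas2, which can take the place of CLOCK in the forebrain, was at 7.93, 8.24, 8.27, 8.32 and 8.23 in Tat-/Sal and at 8.17, 8.46, 8.40, 8.88 and 8.67 in Tat-/Meth. In Tat+/Sal it was at 8.24, 8.42, 8.79, 8.65 and 8.55, and in Tat+/Meth at 8.34, 8.13, 8.50, 8.42 and 8.22. It was lowest on average in Tat-/Sal, and every pair of groups overlapped.

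Nr1d1 had the widest range of the 10 genes, 1.44 log2 units or 2.72-fold between the lowest and the highest array. It read 9.86, 9.45, 10.38, 9.43 and 9.64 in Tat-/Sal and 10.87, 10.69, 10.52, 10.55 and 10.06 in Tat-/Meth. In Tat+/Sal it read 10.78, 10.18, 10.32, 10.23 and 10.41, and in Tat+/Meth 10.27, 10.18, 9.73, 9.67 and 10.01. A single Tat-/Sal mouse, replicate 3, lay within the range of Tat-/Meth and of Tat+/Sal, and the other 4 lay below every array of both groups. Nr1d2 read 11.87, 11.92, 11.86, 11.75 and 11.52 in Tat-/Sal and 12.49, 12.28, 12.19, 12.30 and 11.86 in Tat-/Meth. Its values were 11.82, 11.90, 11.72, 11.89 and 11.76 in Tat+/Sal and 11.82, 11.62, 11.33, 11.53 and 11.52 in Tat+/Meth. Tat-/Meth had the highest mean for both REV-ERB genes.

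Dbp, at its brighter probe, read 16.37, 15.80, 16.38, 15.83 and 16.05 in Tat-/Sal and 16.51, 16.29, 16.30, 16.16 and 16.03 in Tat-/Meth. In Tat+/Sal it read 16.44, 16.26, 16.21, 16.33 and 16.26, and in Tat+/Meth 16.34, 16.15, 15.88, 15.88 and 16.26. The Tat-/Sal mice fell into 2 high, 2 low and 1 between, and all 4 groups overlapped. The dimmer Dbp probe read 15.84, 15.43, 16.06, 15.40 and 15.56 in Tat-/Sal and 16.18, 16.05, 16.05, 15.87 and 15.74 in Tat-/Meth. It read 16.12, 15.90, 15.91, 15.98 and 16.10 in Tat+/Sal and 15.88, 15.76, 15.52, 15.54 and 15.91 in Tat+/Meth. The 2 probes followed each other from mouse to mouse (Pearson's r = 0.95 over the 20 deviations from the mean of the group on its slide).

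**Figure D1:**
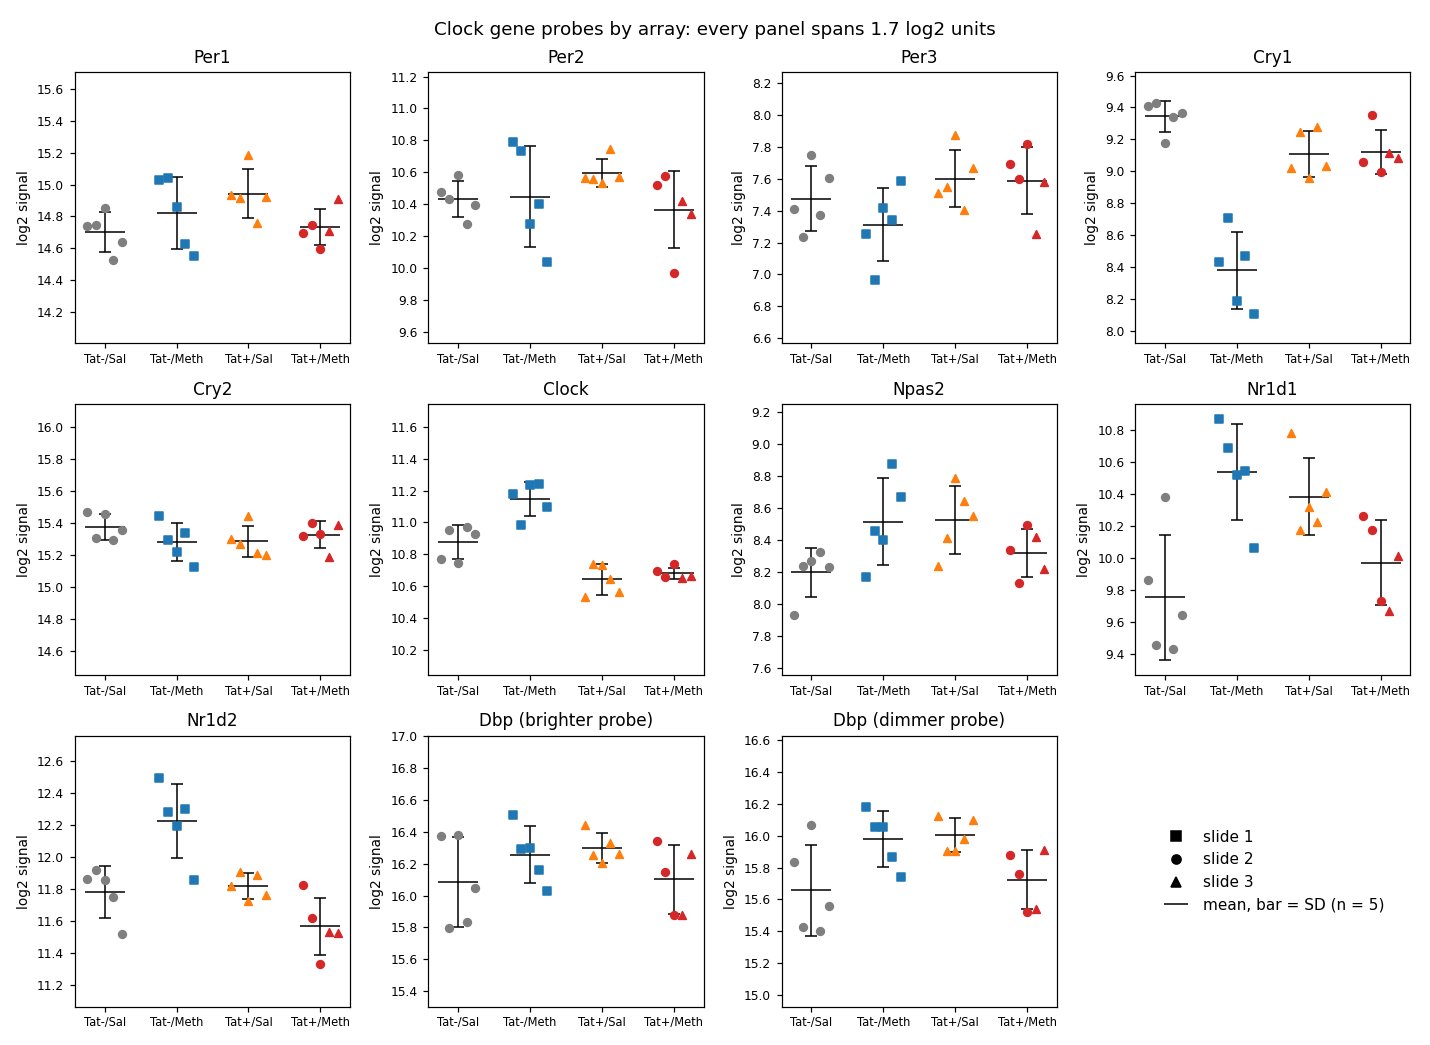
Level of each of the 11 clock gene probes (vertical axis, log2 signal after scaling, each panel 1.7 log2 units high) on the 20 arrays by group, with the group mean and SD (n = 5) and the slide as the marker shape. Cry1 is lowest in Tat-/Meth, which alone fills slide 1, without overlap. Between Tat-/Meth and Tat-/Sal 36.2% of all genes did not overlap. Clock is lower in all 10 Tat+ arrays than in all 10 Tat- arrays, a separation seen in either direction for 0.199% of all genes. Of the 10 genes Nr1d1 has the widest spread between mice of a group.

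The response to the 7 days of Meth without Tat was read from Tat-/Meth against Tat-/Sal. By the methods of the study all mice, saline groups included, also received the Meth challenge before collection. With an adjusted p under 0.05 as the threshold, 5 of the 10 clock genes passed, 4 higher and 1 lower in Tat-/Meth. The difference for Cry1 was -0.96 ± 0.10 (SE) on the log2 scale, a level 1.95-fold lower in Tat-/Meth (limma, adjusted p = 4.37e-07). Nr1d1 was higher by 0.78 ± 0.18 (adjusted p = 0.00169), Nr1d2 by 0.44 ± 0.11 (adjusted p = 0.00203), Npas2 by 0.32 ± 0.12 (adjusted p = 0.0398) and Clock by 0.27 ± 0.06 (adjusted p = 0.00145). Over all 15102 genes the same threshold was passed by 50.2%, with 35% higher and 15.3% lower, so 5 of 10 clock genes is the share of the whole array. The clock genes' median difference was 0.14 and that of all genes also 0.14. Cry1 and Clock were the members whose arrays did not overlap, beside 36.2% of all genes. The calls rest on the scaling of the arrays. Without scaling, where the median of all genes was -0.29, 5 passed and all were lower (Per1, Per2, Per3, Cry1 and Cry2), and Clock and Npas2 had the opposite sign (-0.15 and -0.10). The 35% and 15.3% above hold for the 75th percentile, and the shares of all genes without scaling are not given. Cry1 was lower and passed under each of the 4 scalings tried (75th percentile, quantile, median and none). The Npas2 call was lost when any 1 of 6 arrays was left out (Tat-/Meth replicates 2, 4 and 5 and Tat-/Sal replicates 1, 2 and 5; adjusted p of 0.0511 to 0.124). The brighter Dbp probe did not pass (0.17 ± 0.12, adjusted p = 0.264), whereas the dimmer one did in a fit of every probe on its own (0.32 ± 0.12, adjusted p = 0.0349).

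With Tat present the same treatment gave no call. In Tat+/Meth against Tat+/Sal none of the 10 clock genes passed, and 0% of all genes did. The largest difference was that of Nr1d1, at -0.41 with a 95% interval of -0.80 to -0.03 and an adjusted p of 0.374. It was followed by Nr1d2 (-0.25, interval -0.48 to -0.03), Per2 (-0.23, interval -0.50 to 0.04) and Per1 (-0.21, interval -0.42 to -0.002). In all, 7 of the 10 genes had lower means in Tat+/Meth, their median difference being -0.20 against 0.003 for all genes, and 3 had an unadjusted p under 0.05 (Per1, Nr1d1 and Nr1d2), as did 12.2% of all genes. Within slide 3, where 2 Tat+/Meth arrays lay beside the 5 Tat+/Sal arrays, the difference was -0.54 for Nr1d1, -0.29 for Nr1d2, -0.21 for Per2 and -0.13 for Per1.

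The effect of Tat without the 7 days of Meth, Tat+/Sal against Tat-/Sal, gave no call among the 10 genes either. Of all genes 1.42% passed. By the methods of the study the mice of these groups had received the Meth challenge. Nr1d1 was closest among the higher ones, at 0.63 ± 0.18 (interval 0.25 to 1.01, adjusted p = 0.0783), with 2 mice of Tat+/Sal above the highest of Tat-/Sal. Clock was at -0.23 ± 0.06 (interval -0.36 to -0.10, adjusted p = 0.0627) and its arrays did not overlap, as was so for 4.85% of all genes. Npas2 was at 0.33 (adjusted p = 0.144), Per1 at 0.24 (adjusted p = 0.181) and Cry1 at -0.24 (adjusted p = 0.2). These 5 had an unadjusted p under 0.05, against 20.5% of all genes. Without Tat-/Sal replicate 3, the Tat-/Sal mouse with the highest Nr1d1 and Dbp, Clock and Nr1d1 passed. Clock also passed with quantile normalization, Nr1d1 with the replicate number as a block, and Per1, Clock, Npas2 and Nr1d1 with slide as a random block, at a block correlation of -0.06. The 1.42% of all genes belongs to the main fit. Shares of all genes passing in these alternative fits are not given, so the calls cannot be read as particular to clock genes. These groups shared no slide. A fit with a fixed term for the slide, which rests on the Tat+/Meth arrays that both slides hold, gave 0.85 for Nr1d1 and -0.19 for Clock, and neither passed (adjusted p = 0.891 for both).

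For Tat and Meth together, Tat+/Meth against Tat-/Sal, none of the 10 genes and 0% of all genes passed. Clock was again without overlap, at -0.19 ± 0.06 (adjusted p = 0.64), as were 1.68% of all genes, and within slide 2 the difference was -0.18. Cry1 and Clock had an unadjusted p under 0.05, as did 7.79% of all genes. The other 9 differences lay between -0.22 (Cry1) and 0.22 (Nr1d1).

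In Tat+/Meth against Tat-/Meth, 4 clock genes passed. Cry1 was higher by 0.74 ± 0.10 (adjusted p = 8.45e-06), and Nr1d2 (-0.66 ± 0.11, adjusted p = 4.66e-05), Nr1d1 (-0.57 ± 0.18, adjusted p = 0.0138) and Clock (-0.46 ± 0.06, adjusted p = 6.13e-06) were lower. Of all genes 54.4% passed, 16% higher and 38.5% lower. Without scaling the members that passed were Per3, Cry1 and Cry2, all 3 higher in Tat+/Meth, and Cry1 alone passed under each of the 4 scalings. With the 75th percentile, Per1, Per2, Per3, Cry2 and the brighter Dbp probe passed in none of the 6 contrasts. With quantile normalization Dbp passed in Tat-/Meth against Tat-/Sal, in Tat+/Meth against Tat-/Meth and in the interaction, and Per1 in the last. The share of all genes passing is given for the 75th percentile only. Cry1, Clock and Nr1d2 did not overlap between the groups, beside 38% of all genes. This comparison shares its Tat-/Meth arrays, and slide 1, with the one between the Tat- groups.

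The interaction, the difference made by Meth in Tat+ mice minus that in Tat- mice, passed for 5 clock genes. It was 0.98 ± 0.14 for Cry1 (adjusted p = 4.44e-05), -1.20 ± 0.26 for Nr1d1 (adjusted p = 0.00151), -0.70 ± 0.15 for Nr1d2 (adjusted p = 0.00147), -0.52 ± 0.17 for Npas2 (adjusted p = 0.0251) and -0.23 ± 0.09 for Clock (adjusted p = 0.0455). Of all genes 36% passed, 12.4% upward and 23.6% downward. At the dimmer Dbp probe the interaction passed at -0.60 (adjusted p = 0.0107), and at the brighter one it was -0.37 (adjusted p = 0.111). With median scaling Cry1 (adjusted p = 0.0707) and Clock (adjusted p = 0.167) no longer passed. Without scaling Per3, Cry1 and Cry2 passed, all 3 upward, Nr1d1, Nr1d2 and Npas2 did not, and Clock had the opposite sign (0.25). How large a share of all genes passed under these scalings is not given. The call for Clock was lost when any 1 of 12 arrays was left out: Tat-/Meth replicates 1, 3 and 4, Tat-/Sal replicates 1 and 3, Tat+/Meth replicates 1, 2, 4 and 5 and Tat+/Sal replicates 2, 3 and 4 (adjusted p of 0.0576 to 0.0849).

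**Figure D2:**
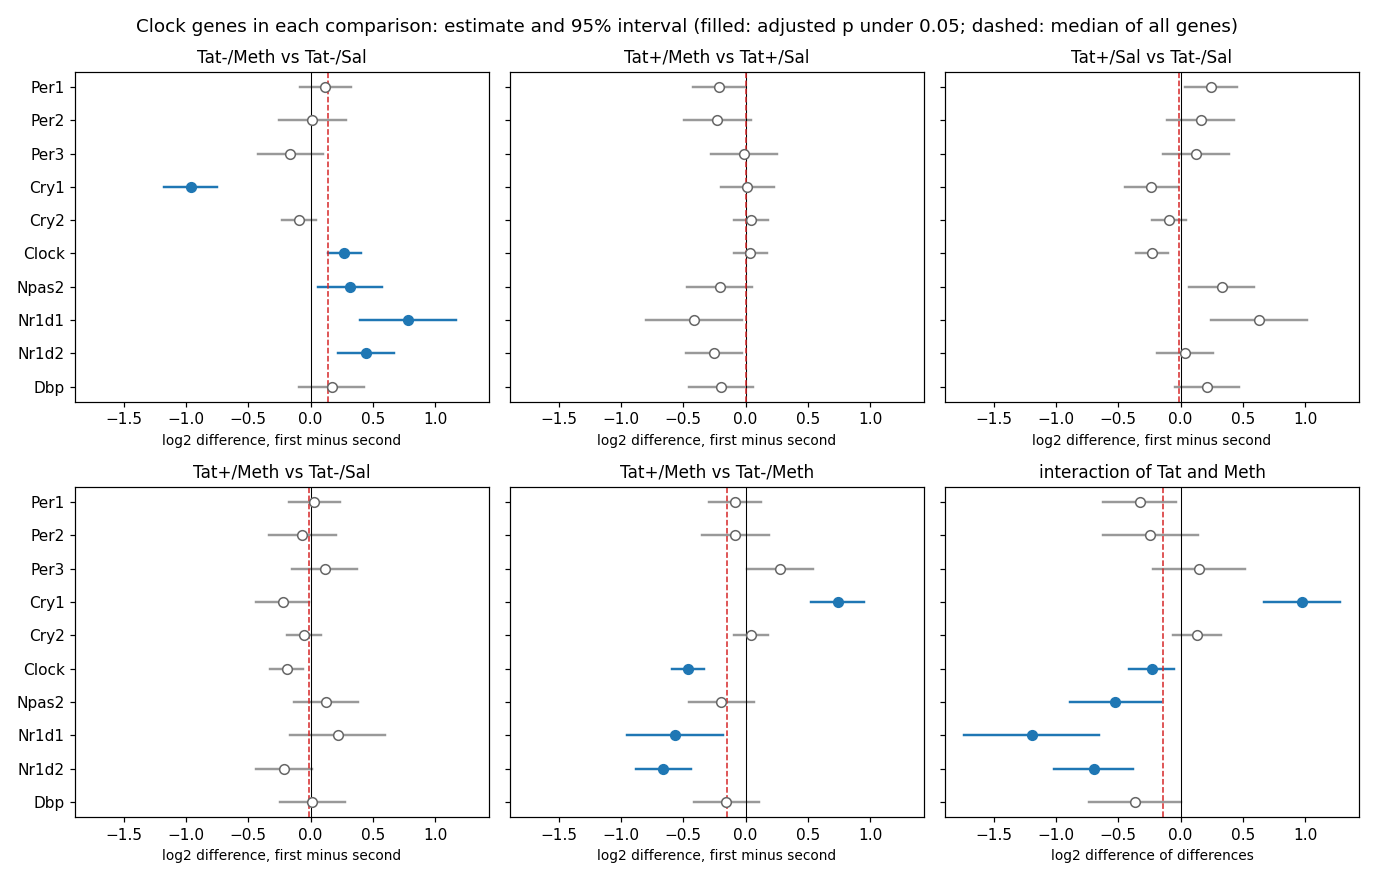
Estimated log2 difference (horizontal axis) with its 95% interval for each of the 10 clock genes in the 5 comparisons and the interaction, with filled points for an adjusted p under 0.05 and a dashed line at the median of all genes. Filled points occur only in the 3 panels that use the Tat-/Meth arrays, and Cry1 points against the Nr1d genes in each of these.

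Of the summed markers of other cell types, those of astrocytes set Tat-/Meth apart. The summed signal of 4 astrocyte markers ran from 15.24 to 15.53 in Tat-/Meth and did not exceed 15.21 in the other groups, and each of the 4 had its highest group mean in Tat-/Meth. Among single genes, 36.2% did not overlap between Tat-/Meth and Tat-/Sal and 38% between Tat-/Meth and Tat+/Meth. Group and slide 1 cannot be told apart here either. The sums of 3 vessel markers (14.73 to 15.22 in Tat-/Meth, 14.26 to 14.82 elsewhere), of 4 oligodendrocyte markers (17.72 to 18.05, against 17.57 to 17.93 in Tat-/Sal) and of 3 microglial markers (13.75 to 13.90, 13.49 to 13.88 elsewhere) overlapped. None of these markers was at background on any array. Their part in the clock gene differences was not tested.

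Beyond the 10 genes, 28 further genes of the clock pathway were examined, of which 27 were tested. In Tat-/Meth against Tat-/Sal 13 of them passed as higher and 1 as lower, beside 35% and 15.3% of all genes, and the median difference of the 27 was 0.24 against 0.14 for all genes. Arntl, the partner of CLOCK and NPAS2, was higher by 0.53 ± 0.13 (adjusted p = 0.00303). The list also held Timeless at 0.61 (adjusted p = 3.52e-05), the kinase Csnk1e, which marks PER proteins, at 0.24 (adjusted p = 0.000724) and the catalytic alpha isoforms of AMP kinase, Prkaa1 at 0.39 (adjusted p = 0.000118) and Prkaa2 at 0.31 (adjusted p = 6.32e-05). The gene that was lower was Fbxl21 at -0.24 (adjusted p = 0.0278). In Tat+/Meth against Tat-/Meth 1 passed as higher, Csnk2b, and 15 as lower, among them Arntl at -0.69 (adjusted p = 0.000275), beside 16% and 38.5% of all genes. The interaction passed for 6, all downward, beside 23.6% of all genes downward. Of these, Bhlhe40, an E-box repressor, had the largest estimate at -0.90 (adjusted p = 0.00814). In Tat+/Sal against Tat-/Sal the ligase subunit Fbxw11 alone passed, at -0.30 (adjusted p = 0.0476), beside 1.42% of all genes, and in the other 2 comparisons none did.

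Mice of one group differed in their clock genes, and those differences were not independent of each other. Between mice of a group the SD of Nr1d1 was 0.31 log2 units, above that of 83.1% of all genes tested, and the SDs of Per2 (0.22), Dbp (0.21) and Npas2 (0.21) lay above those of 69.4% to 71.2%. At the other end were Cry2 (0.10) and Clock (0.09), below the median of all genes, 0.15. Ciart, a clock-controlled repressor that is no member, had the widest spread of the pathway at 0.57, above 96.4% of all genes. Its levels in Tat-/Sal were 10.78, 9.89, 11.12, 9.41 and 9.76. Replicates 1 and 3 were thus high for Ciart, as they were for Dbp, and the other 3 were low.

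To set groups and slides aside, each array was expressed as its deviation from the mean of its group on its slide, and Dbp was compared with the other 9 clock genes over the 20 arrays, with p-values from 100000 permutations within group and slide, adjusted over the 9 relations. Nr1d1 moved with Dbp most closely (Pearson's r = 0.87, permutation p = 4e-05, adjusted 0.00036; Spearman's rho = 0.87, permutation p = 2e-05, adjusted 0.00018). The relation was present on each slide, with r of 0.91 on slide 1, 0.90 on slide 2 and 0.75 on slide 3, and r was 0.88 without the 2 arrays farthest from the median of Dbp (Tat-/Sal replicates 1 and 3). Npas2 moved against Dbp (r = -0.62, permutation p = 0.00325, adjusted 0.0146; rho = -0.66, permutation p = 0.00229, adjusted 0.0103), with r of -0.86, -0.55 and -0.67 on the 3 slides and -0.66 without those 2 arrays.

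Per2, Cry2 and Per1 moved with Dbp by Pearson's r but missed the threshold by rank. For Per2 r was 0.60 (permutation p = 0.00704, adjusted 0.0211) and rho 0.57 (permutation p = 0.0211, adjusted 0.0538). On slides 1 to 3 its r was 0.82, 0.69 and -0.12, so that the relation did not hold on slide 3. For Cry2 r was 0.59 (permutation p = 0.0116, adjusted 0.0261) and rho 0.54 (permutation p = 0.031, adjusted 0.0538), with 0.79, 0.79 and 0.35 by slide. For Per1 r was 0.52 (permutation p = 0.0194, adjusted 0.0349) and rho 0.53 (permutation p = 0.0273, adjusted 0.0538), with 0.87, 0.65 and 0.09 by slide. Without the 2 farthest arrays r was 0.62 for Per2, 0.52 for Cry2 and 0.49 for Per1.

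Nr1d2 (r = 0.52, permutation p = 0.0458, adjusted 0.0687; rho = 0.41, permutation p = 0.124, adjusted 0.159) and Clock (r = -0.49, permutation p = 0.0541, adjusted 0.0696; rho = -0.53, permutation p = 0.0359, adjusted 0.0538) did not pass. On the 3 slides r was 0.87, 0.45 and 0.16 for Nr1d2 and 0.11, -0.89 and -0.38 for Clock, and without the 2 farthest arrays 0.52 and -0.32. Cry1 (r = 0.07, permutation p = 0.778, adjusted 0.778; rho = -0.03, permutation p = 0.895, adjusted 0.895) and Per3 (r = 0.08, permutation p = 0.769, adjusted 0.778; rho = 0.12, permutation p = 0.658, adjusted 0.74) did not pass either. On slides 1 to 3 r was 0.40, -0.13 and -0.03 for Cry1 and -0.53, 0.42 and 0.12 for Per3. Without the 2 farthest arrays r was 0.16 and -0.04. With median scaling, under which r with Dbp had a median of 0.76 over all genes, r was 0.74 and 0.66. The gene with the largest difference between groups, Cry1, was thus not among those that varied with Dbp from mouse to mouse. With the other members, the r of Cry1 ran from -0.80 (Per3) to 0.65 (Per2). Whether the time of collection bears on the Cry1 difference between groups was not tested.

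**Figure D3:**
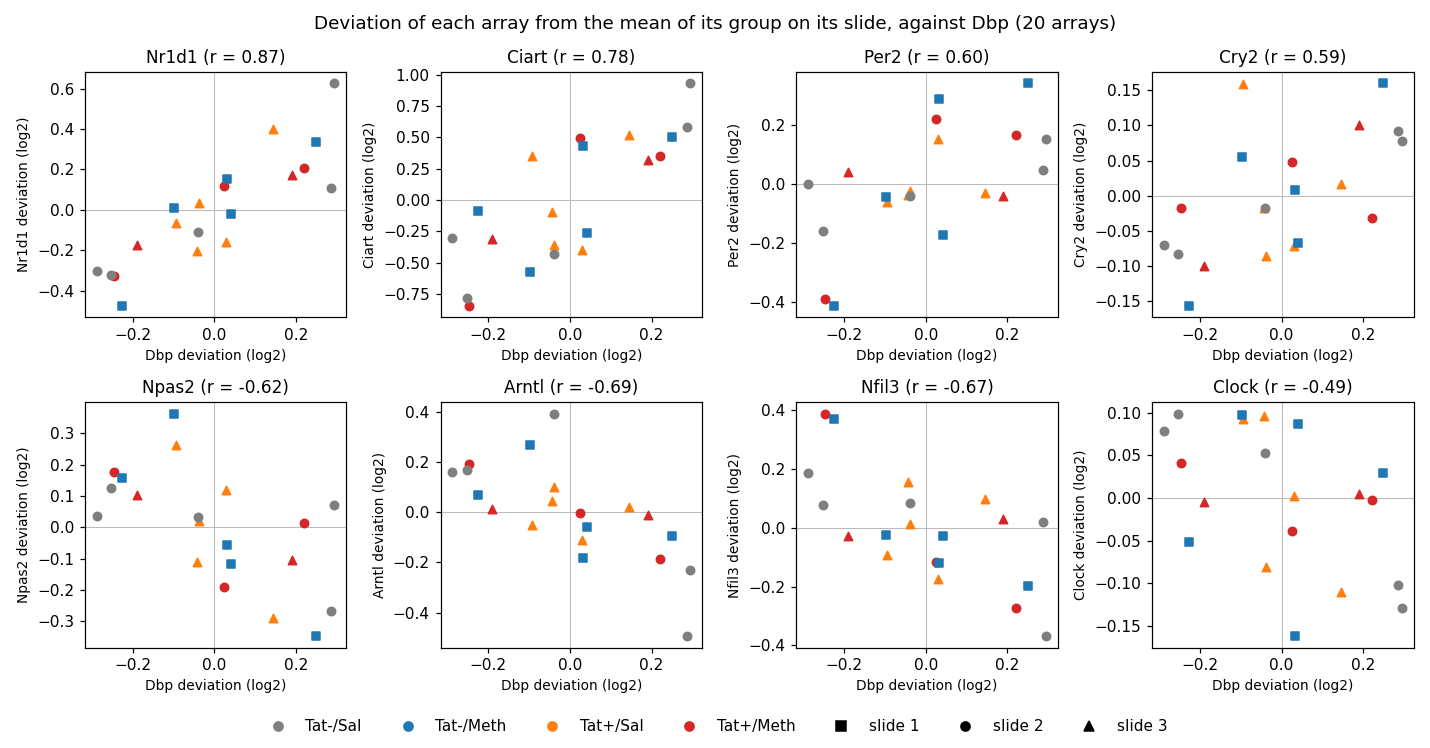
Deviation of 8 clock genes (vertical axes, log2) against the deviation of Dbp (horizontal axis, log2), each from the mean of its group on its slide, over 20 arrays coloured by group and shaped by slide. The slope is upward for Nr1d1, Ciart, Per2 and Cry2 and downward for Npas2, Arntl, Nfil3 and Clock, with r from 0.87 for Nr1d1 to -0.69 for Arntl. Clock (-0.49) did not pass, and with median scaling the r of Clock and Npas2 was positive.

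Against the rest of the array, r with Dbp was computed for 12060 genes with a mean level of at least 8. It exceeded 0.5 for 6.29% of them and was under -0.5 for 2.75%, around a median of 0.06. Of the 8 clock genes other than Dbp at that level, which leaves out Per3, 5 exceeded 0.5 (Nr1d1, Per2, Cry2, Nr1d2 and Per1) and 1 was under -0.5 (Npas2). Of 26 further pathway genes 7 exceeded 0.5 and 2 were under -0.5. Those with higher r were Ciart (0.78), the clock-controlled protease gene Usp2 (0.69), Wee1 (0.69), Cipc (0.68), Bhlhe40 (0.66), Tef (0.61), which belongs to the same family of D-box factors as Dbp, and Prkaa1 (0.52). Those with lower r were Arntl (-0.69) and Nfil3 (-0.67), a repressor that competes with Dbp at the D-box. As background, Nr1d1, Per2, Ciart, Usp2 and Bhlhe40 are known as targets of the CLOCK pair, and Arntl, Npas2 and Nfil3 as genes that peak at the opposite time of day. Cry1 (0.07) and Per3 (0.08, under the level cut) are also known targets, and neither moved with Dbp. The pathway gene Hlf was at 0.31. Whether the hour of collection had a part in these relations was not tested. All these values share the same 20 arrays and genes are not independent replicates, so they are given as a description.

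**Figure D4:**
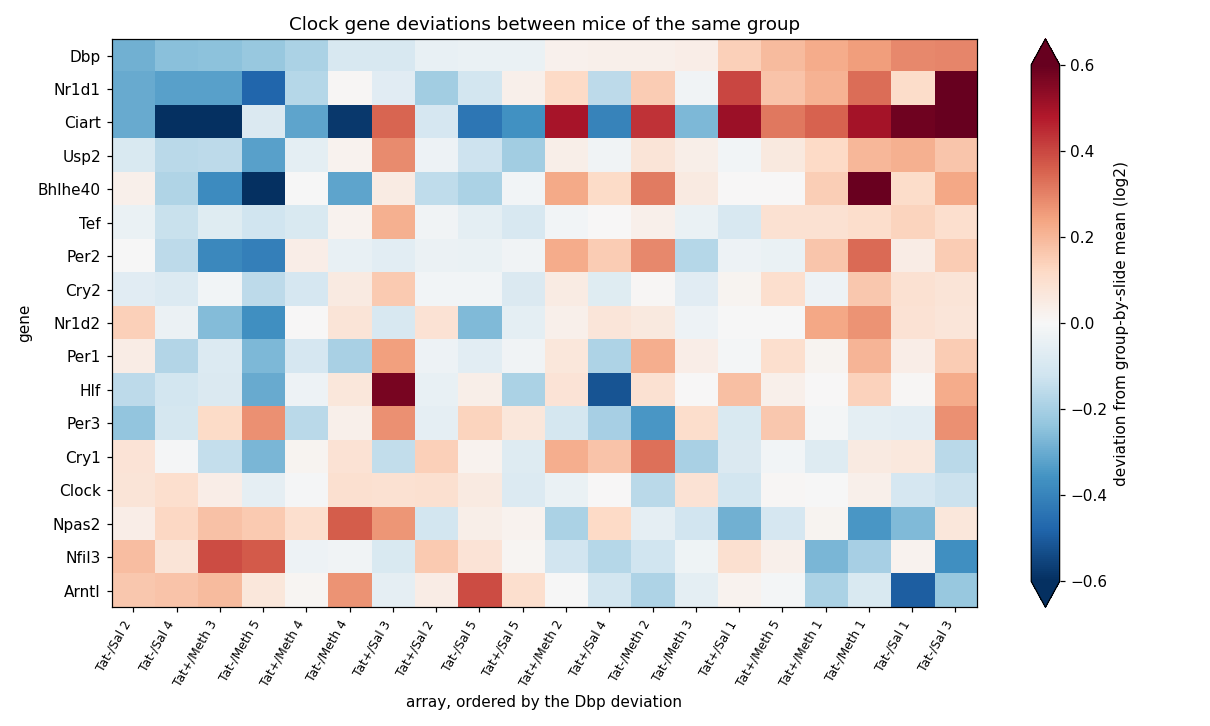
Deviation of 17 clock genes (rows) from the mean of the group on the slide, in log2 units by colour, on 20 arrays (columns) ordered by the deviation of Dbp. From left to right the upper rows pass from blue to red and Npas2, Nfil3 and Arntl from red to blue, while Per3 and Cry1 follow no such order.

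By rank, Nr1d1 was second of the 12060 genes and Ciart was number 19, and from the lower end Arntl was number 19, Nfil3 number 30 and Npas2 number 76. The 10 highest were Man2b1 (0.89), Nr1d1 (0.87), Adssl1 (0.85), Tspan4 (0.85), Ifrd2 (0.83), Rnf43 (0.83), Mpv17l (0.83), Ankrd13b (0.82), Cldn11 (0.82) and Arhgef39 (0.82). The 5 lowest were Pkib (-0.88), Fam193b (-0.87), Sphk2 (-0.85), Zfp143 (-0.84) and Noxred1 (-0.83). Nr1d1 was thus the one member among the genes most like Dbp. With Per1 in place of Dbp, the highest included Cdk5rap3 (0.88), Cdv3 (0.87), Pde4a (0.86) and Cirbp (0.84), an RNA-binding protein gene known to respond to body temperature. Between other members, r was 0.78 for Per2 and Nr1d2, 0.71 for Per1 and Cry2 and -0.80 for Per3 and Cry1.

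**Figure D5:**
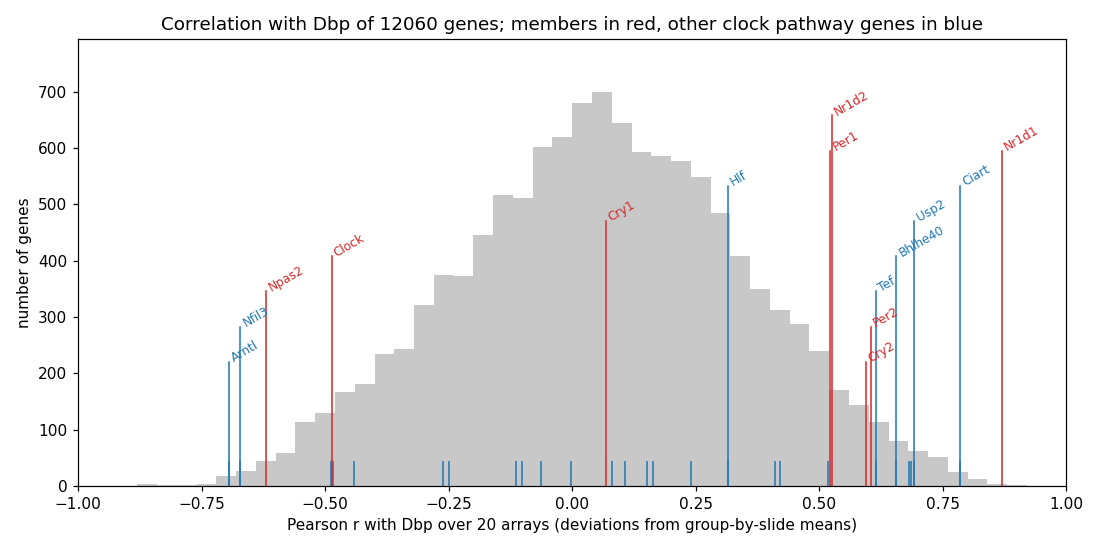
Number of genes (vertical axis) by Pearson's r with Dbp (horizontal axis) over the deviations of 20 arrays, for 12060 genes, with the members in red and other clock pathway genes in blue (short ticks for those not named). Nr1d1 at 0.87 and Ciart at 0.78 lie at the right edge of the distribution, and Npas2 at -0.62, Nfil3 at -0.67 and Arntl at -0.69 at the left edge.

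Measures of the arrays moved little with Dbp over the same deviations: r was 0.01 for the 75th percentile before scaling, -0.003 for the share of probes well above background and 0.15 for the bright corner spots. Of the summed markers of cell types and regions, some moved with Dbp and others did not. The summed oligodendrocyte markers had r = 0.63 with Dbp, the vessel markers 0.52, the choroid plexus markers 0.44, and the astrocyte markers 0.34. For the striatal (-0.09), cortical (0.01), suprachiasmatic (-0.07), microglial (0.06) and red blood cell (-0.07) markers r was near 0. The summed choroid plexus markers varied widely, from 9.14 to 13.49 over the 20 arrays, and the oligodendrocyte markers from 17.41 to 18.05. Cldn11, a myelin gene, is among the 10 genes most like Dbp. With the summed oligodendrocyte markers as a covariate, a choice made after seeing the data, the correlation with Dbp was 0.81 for Nr1d1, -0.60 for Npas2, 0.47 for Per2, 0.34 for Cry2 and 0.24 for Per1. Those of Per2, Cry2 and Per1 were therefore smaller with this covariate, and those of Nr1d1 and Npas2 were close to their values without it. The correlations also rest on the scaling: with median scaling, under which r with Dbp had a median of 0.76 over all genes, that of Npas2 was 0.33 and that of Clock 0.69, and without scaling, where that median was 0.44, they were -0.29 and 0.19. Nr1d1 kept r of 0.81 to 0.95 under all 8 alternatives.

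The promoters of Dbp and of the 2 clock genes that moved most closely with it are shown because these genes are known E-box targets. Each is the 250 bases before the RefSeq start in GRCm38.p6, 5′ to 3′ along the gene, with E-box (CACGTG) and E'-box (CACGTT) matches on either strand in capitals. That of Dbp is chr7:45704997-45705246 on the plus strand, that of Nr1d1 chr11:98775378-98775627 on the minus strand and that of Ciart chr3:95882229-95882478 on the minus strand.
Dbp: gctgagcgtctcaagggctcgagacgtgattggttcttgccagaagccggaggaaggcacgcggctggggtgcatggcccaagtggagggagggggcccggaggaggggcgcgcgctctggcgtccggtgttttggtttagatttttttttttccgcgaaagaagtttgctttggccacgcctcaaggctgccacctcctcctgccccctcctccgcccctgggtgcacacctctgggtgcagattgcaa
Nr1d1: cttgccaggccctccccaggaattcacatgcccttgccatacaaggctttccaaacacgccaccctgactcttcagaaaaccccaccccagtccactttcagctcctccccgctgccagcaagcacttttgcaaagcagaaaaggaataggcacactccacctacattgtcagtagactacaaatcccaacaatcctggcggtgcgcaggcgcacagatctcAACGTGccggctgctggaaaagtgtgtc
Ciart: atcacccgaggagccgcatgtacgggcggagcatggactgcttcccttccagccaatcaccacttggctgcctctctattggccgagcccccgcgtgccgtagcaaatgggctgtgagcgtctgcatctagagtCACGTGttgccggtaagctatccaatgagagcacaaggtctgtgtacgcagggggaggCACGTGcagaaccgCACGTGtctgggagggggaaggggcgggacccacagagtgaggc
Ciart holds 3 E-boxes in this window, which begin 116, 58 and 44 bases before the start, and Nr1d1 holds 1 E'-box, 28 bases before it. In the Dbp window none of the letters searched was found, which says nothing of elements elsewhere in the gene. Of 32851 promoter windows 6.02% held an E-box and 3.85% an E'-box.

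RefSeq's promoter table held 9 of the 10 clock genes, all but Per2. The E-box was found in Per1 and Cry1 and the E'-box in Cry1, Cry2 and Nr1d1. A D-box (TTATGTAA or TTACGTAA), present in 0.931% of windows, was found in Per3. That window is shown because the relation of Per3 to Dbp, the D-box factor, did not pass. It lies at chr4:151044666-151044915 on the minus strand.
Per3: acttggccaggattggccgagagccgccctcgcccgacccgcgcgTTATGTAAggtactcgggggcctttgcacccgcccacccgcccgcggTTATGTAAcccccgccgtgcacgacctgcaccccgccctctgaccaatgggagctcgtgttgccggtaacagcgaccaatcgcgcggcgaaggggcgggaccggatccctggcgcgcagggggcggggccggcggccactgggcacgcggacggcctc
Its 2 D-boxes begin 205 and 158 bases before the start. The cAMP response element (TGACGTCA, 1.55% of windows) and the core of the REV-ERB element (TAGGTCA or TGGGTCA, 5.38%) were found in none of the 9.

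Per1 is also a target of neuronal activity and of glucocorticoids, and genes of both responses were examined beside it. Of 10 activity-induced genes none passed in the 3 comparisons without Tat-/Meth. Of all genes 1.42% passed in Tat+/Sal against Tat-/Sal and 0% in the others of these. In Tat-/Meth 2 (Junb and Crem) were higher than in Tat-/Sal, beside 35% of all genes. In Tat+/Meth against Tat-/Meth Fosb was higher and Junb, Egr2 and Crem were lower (all genes, 16% and 38.5%), and the interaction passed downward for Junb and Crem (all genes, 23.6%). Fos read 10.51, 11.52, 10.49, 11.19 and 10.78 in Tat-/Sal and 11.02, 10.79, 10.32, 10.21 and 10.40 in Tat+/Sal. In Tat+/Meth Fos read 11.21, 10.76, 11.46, 11.40 and 11.51, with 4 of 5 above the highest of Tat+/Sal, with a difference of 0.72 ± 0.20 (adjusted p = 0.219), and in Tat-/Meth 10.93 to 11.37. Per1, by contrast, had its lower mean in Tat+/Meth, and over the deviations of the 20 arrays the r of Fos was -0.13 with Per1 and -0.41 with Dbp. Of 6 glucocorticoid response genes none passed in 5 of the 6 contrasts. Among these 5, 50.2% of all genes passed in Tat-/Meth against Tat-/Sal and 36% in the interaction. The share was 1.42% in Tat+/Sal against Tat-/Sal and 0% in the rest. In Tat+/Meth against Tat-/Meth 1 (Sgk1) was lower, beside 38.5% of all genes. Sgk1 had r = 0.76 with Dbp, the highest of the list. Tsc22d3, a direct target of the glucocorticoid receptor, ran from 13.70 to 15.10 over the 20 arrays, with r of 0.42 with Per1 and 0.34 with Dbp.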

How the data were processed

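RNA of 20 mouse brains was hybridised to 1-colour Agilent arrays (Cy3), and the authors deposited each array's scanner output. Per the file headers, Agilent Feature Extraction 10.7.3.1 made the processed signal intensity, background-subtracted and not scaled between arrays, together with raw intensities and 0 or 1 flags (other values); the methods of the study name a different scanner, dye and array format. The series' table of values, also deposited as intensity, matched the background-subtracted signal plus a constant per array (within 1% or 0.1) and served as an alternative.

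Here control spots and flagged outliers were left out, spots of a probe averaged, log2 taken, each array's 75th percentile subtracted and the mean of the 20 percentiles added back. Symbols came from RefSeq (GRCm38.p6): 27656 of 55681 probes matched, and the brightest probe stood for a gene. Genes with at least 3 values in each group and a group mean of at least 6 log2 units were fitted with limma 3.58.1 in R 4.3.3, 1 mean per group over all 20 arrays, with Benjamini-Hochberg adjustment over 15102 genes. A gene passed at an adjusted p under 0.05, at any fold. Replicates are separate mice. The number of arrays limits the precision. Data were simulated with the real spread for Tat-/Meth against Tat-/Sal. Changes of 0.5, 1 and 2 log2 units were given to 67, 67 and 66 of 15102 genes. Of these, 52.2%, 88.1% and 98.5% were called. In the measured comparison 50.2% of all genes passed, and the rate of calls with so large a share changed was not tested.

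The clock genes, the gene lists and the tests were chosen with earlier results of these data known. Named genes were all 10 members with every probe, pathway genes that passed, the 10 genes with the highest and the 5 with the lowest r with Dbp, and the 5 with the highest r with Per1, except for genes that are not reported here; pathway genes singled out for their r with Dbp or their spread were chosen after their values were seen. Alternatives covered scaling, background correction, probe choice, filters, slide and replicate blocks, thresholds, the methods' t-test and each array left out. Replicate numbers did not pair the samples. Python 3.11.15 searched the promoters and matplotlib 3.10.9 drew the figures.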

Additional observations from a re-analysis of the deposited data

Results flagged for a closer look

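In 2 of 44 groups of 5 values 1 array stood apart from the rest by Dixon's test, which chance alone gives in about 1 of 20 groups. Per2 in Tat+/Sal replicate 4 was at 10.75, with the nearest of the others at 10.57. Npas2 in Tat-/Sal replicate 1 was at 7.93, with the nearest at 8.23.

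The difference made by Meth was not the same with and without Tat for 5 clock genes, by the interaction term: Cry1 (0.98), Clock (-0.23), Npas2 (-0.52), Nr1d1 (-1.20) and Nr1d2 (-0.70). Each of these uses the Tat-/Meth arrays, whose group and slide cannot be told apart.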

How the results depend on the processing

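The number of clock genes that passed was 5 in Tat-/Meth against Tat-/Sal, 4 in Tat+/Meth against Tat-/Meth and 5 for the interaction. Median scaling gave 3 in the first (Cry1, Nr1d1 and Nr1d2) and 3 for the interaction (Npas2, Nr1d1 and Nr1d2). No scaling gave 3 for the interaction (Per3, Cry1 and Cry2), all upward, where 1 of 5 was upward with the 75th percentile. A 2-fold minimum at adjusted p under 0.05, the cut of the study's own gene counts, left 0, 0 and 1 (Nr1d1). The stricter threshold in its methods, adjusted p under 0.01 and above 3-fold, left 0 in each. In Tat+/Sal against Tat-/Sal, where none passed, quantile normalization gave 1 (Clock), slide as a random block 4 (Per1, Clock, Npas2 and Nr1d1, at a block correlation of -0.06) and leaving out 1 array 0 to 2. For the alternatives in this section the share of all genes passing is not given, so these counts cannot be set beside it. Without scaling, Clock was at -0.15 in Tat-/Meth against Tat-/Sal and at 0.25 in the interaction, and Npas2 was at -0.10 in the former, each opposite in sign to the value reported; the median of all genes in Tat-/Meth against Tat-/Sal was 0.14, against 0.26 with median scaling and -0.29 with none. The correlation of Dbp with Npas2 was 0.33 with median scaling, that with Clock 0.69 with median scaling and 0.19 without scaling (reported as -0.49), that with Per3 -0.04 without the 2 farthest arrays and -0.17 with the oligodendrocyte covariate, and that with Cry1 -0.10 without the Tat-/Meth arrays; the cause was not tested. As a fixed block slide could be fitted only for the 3 comparisons without Tat-/Meth.

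With the replicate number as a block, 1 clock gene (Nr1d1) passed in Tat+/Sal against Tat-/Sal, and Clock no longer passed in the interaction (adjusted p = 0.0583). Same-numbered arrays of different groups did not deviate together (r of -0.18 to 0.36 over 30 pairs, median 0.04).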
